A study of Mus musculus with 6 samples.

Results

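The tripartite motif (TRIM) ubiquitin ligases were described in mouse melanoma cells with and without Spp1. The members were taken by symbol, as the genes whose name is Trim followed by a number and, in some, 1 letter. There were 51 such genes among the 19213 genes of the deposited table, each with at least 1 read in every library. Of these 51, 46 passed the filter on low values and were tested. PolyA-selected RNA was sequenced as paired-end libraries from 3 non-targeting controls and 3 samples in which Spp1, the gene of the secreted phosphoprotein osteopontin, had been knocked out with CRISPR-Cas9. All 6 are labelled as melanoma cells of batch 1, and neither group is labelled with any other allele, drug or time. Each sample bears its own cell line label, counting up from B16F10 for control 1 through B16F15 for knockout 3, and whether the cells differed is not stated. The labels do not say whether the knockout samples come from 1 clone, several clones or a pool, so the p-values cover only the scatter of these libraries, which may be technical.

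Most TRIM proteins carry a RING finger, which recruits an ubiquitin-loaded E2 enzyme, followed by B-box zinc fingers and a coiled coil through which the proteins pair. The C-terminal end differs between subfamilies and picks the substrate. Many TRIM proteins act in innate immunity, where some bind viral capsids or steer the sensors of viral RNA, and several of their genes are induced by interferon. Others are cofactors of transcription, repressors of messenger RNA, organisers of microtubules or ligases of the muscle sarcomere.

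The libraries held 72717465 to 94314770 reads in listed genes, and libraries of the same group correlated at r = 0.996 to 0.997 across tested genes on the log2 scale. Values are scaled reads, that is, read numbers after the authors' division by a size factor per library. Spp1 stood at 149, 156 and 145 scaled reads in the control libraries and 2.09, 1.98 and 3.90 in the knockout libraries. All 7 melanocyte markers were in the table, summing to 898571 to 914819 scaled reads in control and 1059657 to 1070434 in knockout. They did not move together. Tyrp1, Dct, Pmel and Mlana were higher in knockout (limma adjusted p under 0.05), and Mitf and Sox10 did not pass. Tyr was lower, at a mean of 29433 scaled reads in control and 20055 in knockout. Of 7 macrophage markers 4 were in the table, summing to 269.3 to 279.9 scaled reads in control and 86.9 to 90.02 in knockout. Of 3 endothelial markers 1 was in the table, at 8.05 to 8.36 and 6.83 to 8.37, and Cd3e, Cd4 and Cd8a of T cells were not analysed here. The fibroblast markers Pdgfra and Pdgfrb summed to 1457 to 1729 scaled reads in control and 626 to 727 in knockout, while Dcn and Lum were not analysed here.

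Across the family, 16 of the 46 tested TRIM genes were higher in knockout, 18 were lower and 12 did not pass the test (limma on log2(scaled reads + 1), adjusted p under 0.05 over all 15307 tested genes). Of all tested genes 63.0% passed the same test, 34.4% being higher and 28.6% lower. The shares in the family were 34.8% higher and 39.1% lower. Of the changes many were small, and 18 of the 34 changed members moved by less than 1.5-fold. Changes of at least 1.5-fold were found in 16 members, 14 lower and 2 higher, against 16.7% of all tested genes, 11.5% lower and 5.18% higher. In 35 members the 3 knockout libraries did not overlap the 3 control libraries, as was so in 67.1% of all tested genes. The median log2 change was -0.050 over the tested members and 0.025 over all tested genes. Trim5 and Trim29 reached the minimum of 10 scaled reads in the control libraries only, and so could enter the test only as lower genes. The reads of the family as a whole were not reduced. The members summed to 106492 to 110255 scaled reads in the control libraries and to 121798 to 124498 in the knockout libraries, and Trim28 alone accounted for at most 18.3% of the family's reads in a control library and for 22.3% to 23.3% in the knockout libraries.

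**Figure D1:**
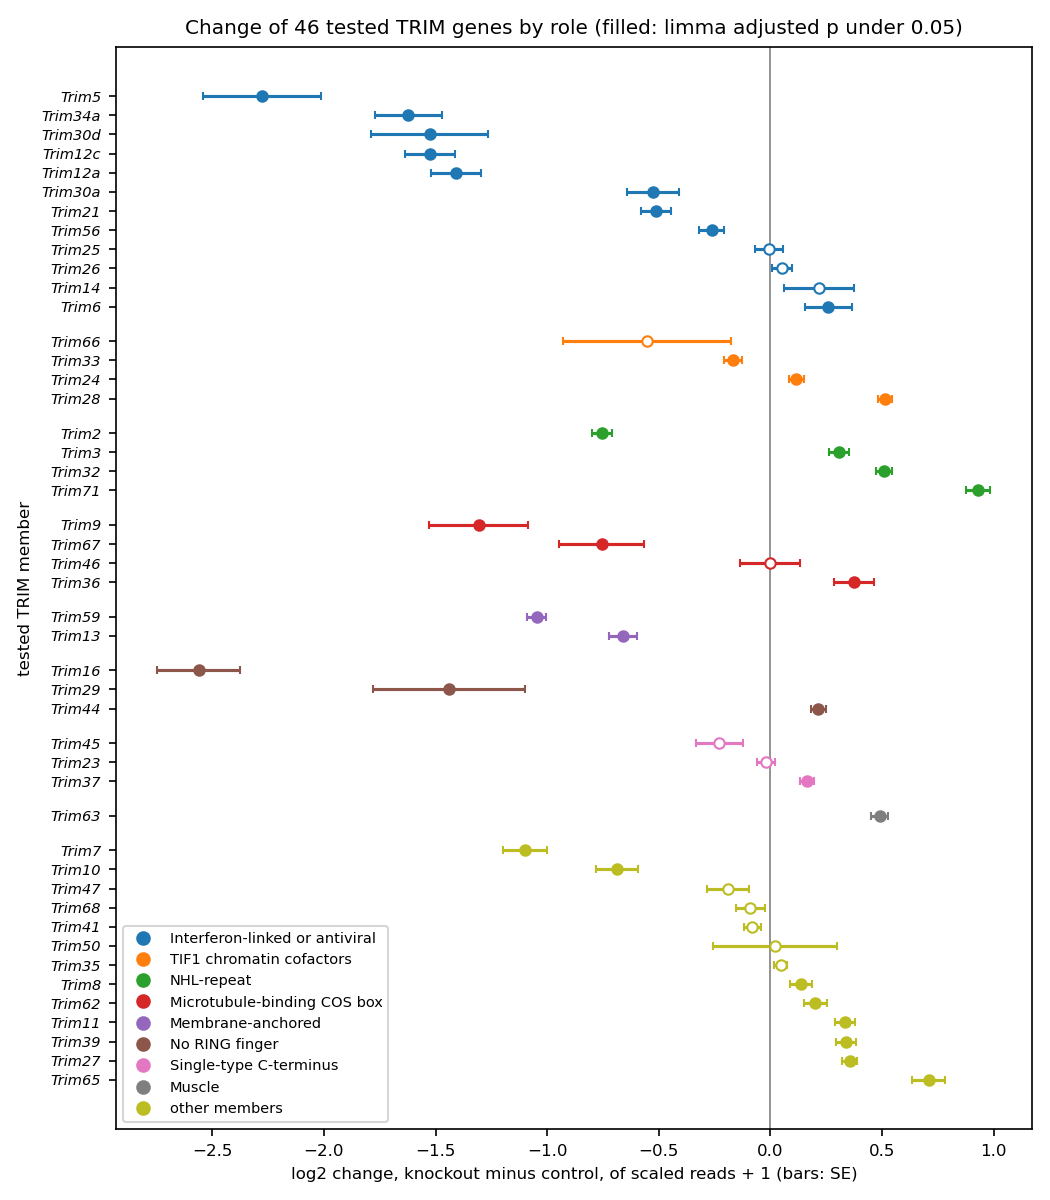
Log2 change of each tested TRIM gene, knockout minus control, on log2(scaled reads + 1), with bars of 1 SE, grouped by role; filled points passed the test (limma adjusted p under 0.05, n = 3 libraries per group). The interferon-linked members reach down to -2.28 for Trim5, while Trim71 at 0.93 and Trim65 at 0.71 lie highest.

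The interferon-linked and antiviral members were mostly lower in knockout. Of 12 tested members 8 fell, 1 rose and 3 did not pass, with a median log2 change of -0.52, where 28.6% of all tested genes fell. Trim5 is 1 of these 8 and, as said above, could enter the test only as a lower gene. The 5 that fell most lie in 1 cluster on chromosome 7, which held 7 tested TRIM genes between 104218793 and 104507849 (mm10, positions from GENCODE M21). In order along the chromosome these are Trim6, Trim34a, Trim5, Trim12a, Trim12c, Trim30a and Trim30d, the mouse counterparts of a region that in primates holds the capsid-binding restriction factor TRIM5. All but Trim6 fell.

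Trim5 was read at 30.3, 35.8 and 43.9 scaled reads in the control libraries and 7.32, 5.94 and 6.83 in the knockout libraries. Every knockout library lay below every control library, and the log2 change was -2.28 ± 0.26 (SE, limma adjusted p = 1.95e-06). Trim34a, a member of the TRIM5 group, stood at 134, 122 and 127 scaled reads in control cells and at 47.1, 39.6 and 36.1 in knockout cells. The groups did not overlap, and its log2 change was -1.62 ± 0.15 (SE, limma adjusted p = 1.58e-07). Trim12c, a rodent relative of TRIM5, was the most read member of the cluster in control, though not in knockout, at 415, 444 and 347 scaled reads across the controls against 157, 128 and 132 across the knockouts. Its groups were separated as well, with control 3 the lowest control, and the log2 change was -1.53 ± 0.11 (SE, limma adjusted p = 1.23e-08). Trim12a, another rodent relative of TRIM5, was read at 229, 215 and 203 and 82.6, 83.1 and 76.1 scaled reads. The libraries within each group lay close together, and it fell by 2.68-fold (log2 change -1.41 ± 0.11 SE, limma adjusted p = 3.01e-08).

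Trim30d stood at 60.6, 36.7 and 35.0 scaled reads in control and 13.6, 17.8 and 11.7 in knockout. Control 1 lay well above the other controls, but the groups did not overlap and the log2 change was -1.53 ± 0.26 (SE, limma adjusted p = 0.000102). Trim30a, which in mouse restrains Toll-like receptor signalling, was at 205, 182 and 183 scaled reads in control cells and at 114, 138 and 143 in knockout cells. Every knockout library was below every control library, by a smaller margin than in Trim30d (log2 change -0.53 ± 0.12 SE, limma adjusted p = 0.000969). Trim6 was read at 146, 155 and 144 scaled reads in control and 169, 172 and 192 in knockout. The knockout libraries all lay above the control libraries, but its call (log2 change 0.26 ± 0.10 SE, limma adjusted p = 0.0404) was lost in 13 of 18 alternative settings, the leaving out of any single library among them, with limma adjusted p of 0.0505 to 0.154 in those 6.

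Reads of the cluster can be split between copies. Of the 50-base words of their transcripts, Trim34a shares 59.7% with other genes, mostly with Trim34b, which was not analysed here, Trim5 36.6%, Trim12c 33.7%, Trim12a 10.5%, Trim30d 7.49% and Trim30a 5.98%. The levels of Trim34a, Trim5 and Trim12c one by one are uncertain for that reason, and 23.5% of the exon length of Trim34a also overlaps the predicted gene Gm47248 on the other strand. The sum of Trim5, Trim12a and Trim12c does not depend on how reads are divided among these 3. It was 673.6, 695.6 and 594.0 scaled reads in the control libraries and 246.9, 216.6 and 214.7 in the knockout libraries, which is 2.89-fold lower in knockout. The sum of Trim30a and Trim30d was 265.3, 219.1 and 218.1 in control and 127.6, 156.3 and 155.2 in knockout, where every library was again below the controls.

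The 37 other tested genes whose start lies within 3000 kb of that of Trim6 had log2 changes from -1.81 to 0.72, with a median of 0.11. With the median change of the nearest 50 tested genes on each side subtracted, the 6 lower cluster members kept their calls, from -0.57 for Trim30a to -2.32 for Trim5, where 29.8% of all tested genes were higher and 27.8% lower.

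**Figure D2:**
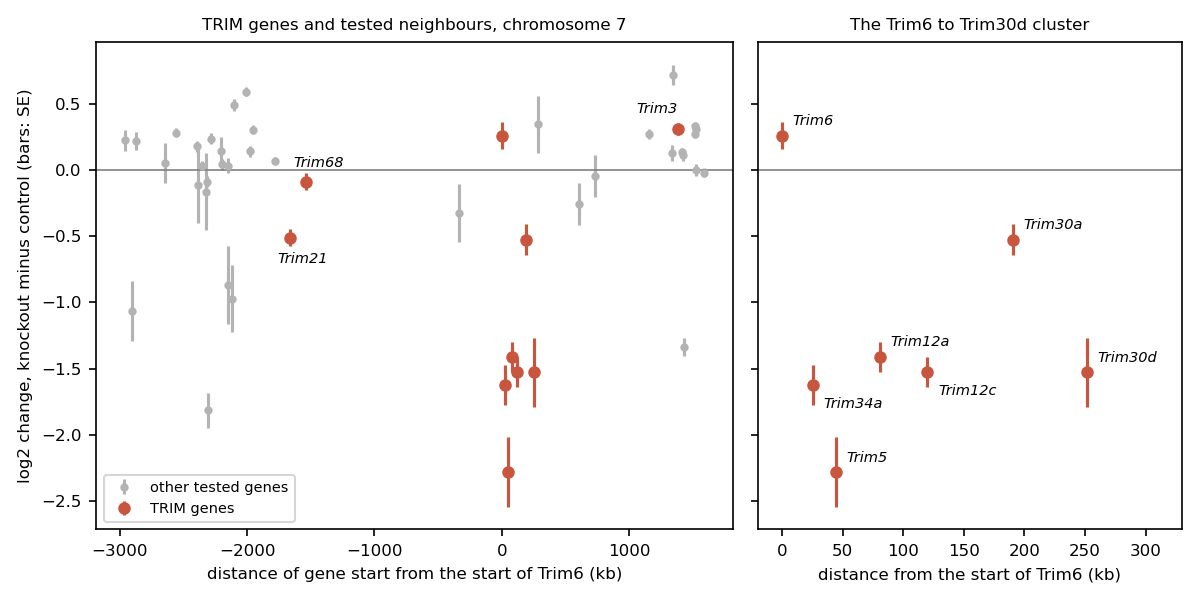
Log2 change (knockout minus control, bars of 1 SE, n = 3 libraries per group) of TRIM genes in red and other tested genes in grey against the distance of their start from the start of Trim6 in kb; the right panel shows the cluster alone. From 25.7 kb (Trim34a) to 251.2 kb (Trim30d) all 6 members lie below 0, while Trim6 at 0 kb lies above.

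The promoter windows of the lower cluster members hold the letters of an interferon-stimulated response element, a site through which interferon-induced genes are switched on. The letters GAAANNGAAA were searched on both strands of RefSeq promoter windows (GRCm38.p6, the assembly of mm10), from 250 bases before to 50 bases after each gene start, and overlapping matches were allowed. They occur in 3.44% of 32851 windows and in 1079 of 27025 genes with a window (3.99%). Windows were available for 39 of the 51 TRIM genes, and 9 of these hold the letters. Of the 12 interferon-linked members with a window 8 hold them, and of the 27 other members with a window 1, Trim2, does. Trim2 holds them in 1 of its several windows only. The interferon-linked members whose window lacks the letters are Trim6, Trim25, Trim38 and Trim56, of which Trim56 fell. The 8 interferon-linked windows are printed because 7 of their genes fell and 1, Trim26, did not pass. Each stretch of 100 bases is on the gene's own strand, from 5′ to 3′, with the matching letters in capitals, where TTTCNNTTTC is the same element read on the other strand. The stretch runs from 70 bases before the gene start, except in Trim26, where it runs from 170 bases before.
Trim34a: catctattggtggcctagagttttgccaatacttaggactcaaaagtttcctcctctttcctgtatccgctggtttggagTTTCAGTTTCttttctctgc
Trim5: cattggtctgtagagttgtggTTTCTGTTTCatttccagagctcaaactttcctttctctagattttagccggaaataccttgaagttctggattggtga
Trim12a: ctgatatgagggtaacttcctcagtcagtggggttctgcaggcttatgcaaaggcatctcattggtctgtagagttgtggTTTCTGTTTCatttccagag
Trim12c: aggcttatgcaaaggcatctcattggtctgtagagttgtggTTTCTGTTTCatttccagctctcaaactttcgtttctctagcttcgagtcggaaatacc
Trim30a: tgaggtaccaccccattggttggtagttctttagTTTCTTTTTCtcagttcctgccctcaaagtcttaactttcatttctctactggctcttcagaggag
Trim30d: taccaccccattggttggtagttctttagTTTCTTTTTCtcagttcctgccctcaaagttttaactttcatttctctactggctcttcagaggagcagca
Trim21: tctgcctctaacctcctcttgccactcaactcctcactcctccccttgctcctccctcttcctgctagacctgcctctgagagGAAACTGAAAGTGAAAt
Trim26: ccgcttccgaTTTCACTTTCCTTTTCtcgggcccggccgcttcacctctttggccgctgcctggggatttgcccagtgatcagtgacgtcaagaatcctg
In genome order the cluster stretches are chr7:104244387-104244486 (plus strand, Trim34a), chr7:104288077-104288176 (minus, Trim5), chr7:104315466-104315565 (minus, Trim12a), chr7:104353320-104353419 (minus, Trim12c), chr7:104465164-104465263 (minus, Trim30a) and chr7:104507820-104507919 (minus, Trim30d). Trim21 is at chr7:102565453-102565552 on the minus strand and Trim26 at chr17:36836976-36837075 on the plus strand.

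The matches are not independent of each other. The windows of Trim5 and Trim12a share an identical run of 241 bases, those of Trim12c share runs of 71 bases with both, and those of Trim30a and Trim30d share a run of 118 bases. Trim34a and Trim21 share no run over 10 bases with any other printed window. Of the 9 tested members whose window holds the letters 8 fell, and of the 26 tested members whose window does not 7 fell, 11 rose and 8 did not pass. Trim5, among the 8, could be called only as lower. Tested members without a window are left out. Of those Trim16, Trim29 and Trim33 fell, Trim3, Trim8, Trim11, Trim36 and Trim65 rose, and Trim14, Trim35 and Trim50 did not pass. Among all tested genes with a window, 40.8% of the 346 with the letters and 30.8% of the 9443 without them were lower in knockout. The shares that were higher were 33.5% with the letters and 40.6% without them. A match is a description of the letters and not of a factor bound there.

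**Figure D3:**
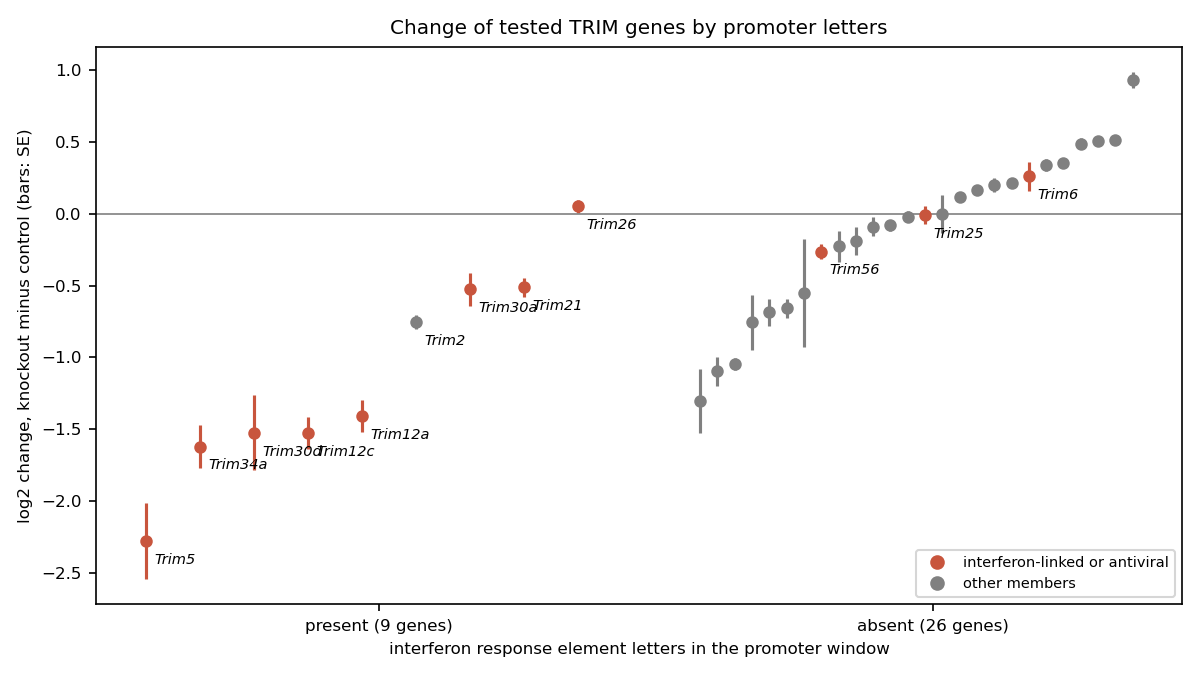
Log2 change (knockout minus control, bars of 1 SE, n = 3 libraries per group) of the tested TRIM genes with a RefSeq promoter window, split by whether the window holds the letters of the interferon-stimulated response element; interferon-linked members are red. In the group of 9 with the letters Trim26 alone lies above 0, and the 26 without them range on both sides.

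The other interferon-linked members changed by less than 1.5-fold or did not pass. Trim21, the cytosolic antibody receptor and lupus autoantigen Ro52, was read at 870.0, 809 and 751 scaled reads in control and 549, 562 and 590.5 in knockout. Its groups did not overlap, and it fell by 1.43-fold (log2 change -0.51 ± 0.066 SE, limma adjusted p = 6.02e-06). Trim56, an antiviral ligase that acts on the DNA sensing pathway, was at a log2 difference of -0.26 ± 0.055 (SE, limma adjusted p = 0.000605). Trim25, which ubiquitinates the RNA sensor RIG-I, was read at 1109, 939 and 983 scaled reads across the controls against 999, 1043 and 970.1 across the knockouts. These groups overlapped throughout, and the log2 difference was -0.0061 ± 0.063 (SE, limma adjusted p = 0.941). Trim26, which in human cells targets IRF3, was at a log2 difference of 0.051 ± 0.044 (SE, limma adjusted p = 0.336). Trim14, an adaptor at the mitochondrial antiviral protein MAVS, was at 0.22 ± 0.16 (SE, limma adjusted p = 0.246), and 38% of its exon length overlaps Nans.

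The RNA sensing pathway that TRIM25 serves was mostly lower. Of 13 tested genes 8 fell, 3 rose and 2 did not pass, with a median log2 change of -0.53, where 28.6% of all tested genes fell and 34.4% rose. Isg15, an ubiquitin-like modifier, fell from 874 ± 51.6 to 226 ± 11.8 scaled reads (SD, n = 3). Irf7, a transcription factor that interferon induces, was read at 48.0, 26.8 and 20.3 scaled reads in the control libraries and with 1 read in each knockout library. Like Trim5 and Trim29 it passed the filter through the control libraries only, and so could be called only as lower. Irf3 rose by 0.30 and the adaptor Mavs by 0.23 on the log2 scale. Of 11 genes of interferon signalling 4 fell, 3 rose and 4 did not pass. These shares of 36.4% lower and 27.3% higher are near the 28.6% and 34.4% of all tested genes. With the median change of the neighbours subtracted 6 fell and 3 rose, where 27.8% of all tested genes fell and 29.8% rose. Stat2 fell from 1184 ± 51.5 to 517 ± 19.2 scaled reads, and by 0.58 on the log2 scale once its neighbours on chromosome 10 were subtracted. With nothing subtracted, the receptor chains Ifnar1 and Ifnar2 rose by 0.57 and 0.53 on the log2 scale. The 2 tested macrophage markers moved the same way as most interferon-linked TRIM genes. Both tested markers fell, Lyz2 from 163 ± 4.31 to 36.6 ± 7.49 and Cd68 from 107 to 47.7 scaled reads in the mean, whereas the defining receptors Csf1r and Fcgr3 were near 0, Csf1r averaging 2.30 scaled reads in control cells against 2.96 in knockout cells and Fcgr3 1.22 against 1.33, and Adgre1, Itgam and Ptprc were not analysed here. The part of these markers in the result was not tested. In bulk samples fewer cells of a type and less RNA per cell cannot be told apart.

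Among the chromatin cofactors of the TIF1 subfamily, Trim28 was raised. Trim28, the KAP1 corepressor through which KRAB zinc finger proteins silence transposable elements, was the most read TRIM gene (chromosome 7, 12999114 to 13031035). It was read at 19885, 19186 and 20129.9 scaled reads in the control libraries and 27415, 28732 and 28352 in the knockout libraries. All knockout libraries lay above all control libraries, 1.43-fold higher in the mean (log2 change 0.51 ± 0.032 SE, limma adjusted p = 1.83e-09), and 0.34 remained net of the neighbours. Trim24, a nuclear receptor cofactor that also targets p53, rose by 0.12 on the log2 scale, a call lost in edgeR, in DESeq2, with equal totals and net of the neighbours (adjusted p = 0.115, 0.116, 0.0864 and 0.154). Trim33, a ligase of SMAD4, fell by 0.17, but lies on chromosome 3 among genes with a median of -0.29 and was higher net of them, at 0.12 (limma adjusted p = 0.0146). Trim66, best known from testis, was at a log2 difference of -0.55 ± 0.38 (SE, limma adjusted p = 0.218), from 10.3 to 7.08 scaled reads.

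The partners of TRIM28 in silencing moved by smaller amounts and in both directions. Of 16 tested partners 8 rose, 4 fell and 4 did not pass, none by 1.5-fold, with a median log2 change of 0.078. Of all tested genes 34.4% rose and 28.6% fell. Morc2a, an ATPase of the HUSH silencing pathway, rose from 5018 ± 281 to 6535 ± 84.2 scaled reads, and Atf7ip, the partner of the histone methyltransferase SETDB1, rose by 0.38 on the log2 scale. Hdac2, a histone deacetylase, fell by 0.43 and Pphln1, a HUSH subunit, by 0.26. Their neighbours on chromosomes 10 and 15 had medians of -0.63 and -0.19. Net of the neighbours they stood at 0.20 and -0.068, and 8 partners rose and 1 fell, where 29.8% of all tested genes rose and 27.8% fell.

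The NHL-repeat members, which bind RNA or other proteins through a C-terminal propeller, all changed. Trim71, the counterpart of the worm developmental gene lin-41 and a repressor of messenger RNA in stem cells, was read at 918, 987 and 1011 scaled reads in control and 1870.3, 1734 and 1957 in knockout (chromosome 9, 114507133 to 114564369). The groups lay far apart and Trim71 was 1.91-fold higher in knockout, the largest rise of the family (log2 change 0.93 ± 0.055 SE, limma adjusted p = 1.27e-09). Its neighbours on chromosome 9 had a median of -0.22, so its change net of them was 1.15. Trim32, a ligase mutated in a limb-girdle muscular dystrophy, was at 4159.8, 3859 and 4032 scaled reads in control cells and at 5705, 5760.2 and 5672 in knockout cells. It rose with no overlap between the groups (log2 change 0.51 ± 0.036 SE, limma adjusted p = 8.14e-09), and Trim3, a neuronal ligase, rose by 0.31. Trim2, which ubiquitinates neurofilament light chain, went the other way, from 1804, 1885 and 1809.6 to 1061, 1117 and 1080.4 scaled reads (chromosome 3, 84160439 to 84306877). Its groups did not overlap (log2 change -0.75 ± 0.046 SE, limma adjusted p = 1.49e-09), and net of its neighbours on chromosome 3 it stood at -0.46 (limma adjusted p = 3.9e-07).

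Of the microtubule-binding members with a COS box 2 fell and 1 rose. Trim9, a brain ligase that interacts with the netrin receptor DCC, was read at 64.8, 64.4 and 70.0 scaled reads in control and 19.9, 23.7 and 38.1 in knockout (chromosome 12, 70244533 to 70347614). Knockout 3 was the highest knockout library but stayed below all controls, and the log2 change was -1.31 ± 0.22 (SE, limma adjusted p = 9.58e-05). Trim67, the closest relative of Trim9, was at 75.2, 67.1 and 75.7 scaled reads across the controls against 35.6, 37.6 and 57.6 across the knockouts (chromosome 8, 124793092 to 124834713). Knockout 3 again lay above the other knockout libraries and below the controls (log2 change -0.76 ± 0.19 SE, limma adjusted p = 0.00276). In DESeq2 on 5 libraries, which leave out knockout 2, Trim67 did not pass (adjusted p = 0.0544). Trim36, a ligase first described in the acrosome of sperm, rose by 0.37 on the log2 scale and did not pass in DESeq2 (adjusted p = 0.0575). Trim46, which organises microtubules at the axon start, was at a log2 difference of -0.0025 ± 0.13 (SE, limma adjusted p = 0.989). It lies on chromosome 3, and its value net of the neighbours was 0.32 (limma adjusted p = 0.045).

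Both membrane-anchored members fell. Trim59, which carries a C-terminal membrane anchor, was read at 2874, 2908 and 2972 scaled reads in control and 1438, 1355 and 1443 in knockout (chromosome 3, 69035288 to 69044755). The libraries of each group lay within a narrow range and the groups were far apart (2.07-fold lower, log2 change -1.05 ± 0.042 SE, limma adjusted p = 2.08e-11). Its neighbours on chromosome 3 had a median of -0.27, and -0.78 remained net of them. Trim13, a ligase of the endoplasmic reticulum that acts in protein degradation and autophagy, was at 1005, 979 and 1103 scaled reads in control cells and at 621, 635 and 696 in knockout cells (chromosome 14, 61598247 to 61605946). Its groups did not overlap (log2 change -0.66 ± 0.064 SE, limma adjusted p = 2.7e-07).

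Trim16, Trim29 and Trim44 lack a RING finger and stand in no other role group, and 2 of these 3 fell and 1 rose. Trim16, which takes part in the autophagy of damaged lysosomes, was read at 89.8, 96.6 and 100.1 scaled reads in control and 17.8, 13.8 and 14.6 in knockout (chromosome 11, 62820231 to 62850808). All knockout libraries lay far below all controls, and the fall of 6.19-fold in the mean was the largest of the family by log2 change (-2.56 ± 0.19 SE, limma adjusted p = 1.07e-08). Its neighbours on chromosome 11 had a median of 0.10. Trim29, an epithelial member that lacks the RING, was near the limit of the test, at 12.5, 13.4 and 13.8 scaled reads across the controls against 3.14, 4.95 and 4.88 across the knockouts (chromosome 9, 43310848 to 43336115). The groups did not overlap (log2 change -1.44 ± 0.34 SE, limma adjusted p = 0.00166), but the call was lost in DESeq2 on 5 libraries (adjusted p = 0.0531). Trim44, which holds a zinc finger of ubiquitin proteases, was among the most read members, at 12401, 12794 and 13288 scaled reads in control cells and at 15043, 15041 and 14578 in knockout cells. The knockout libraries were all above the controls by a small step (log2 change 0.22 ± 0.033 SE, limma adjusted p = 3.65e-05).

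Trim63, the muscle ligase MuRF1 that degrades sarcomere proteins in wasting muscle, was strongly read in these melanoma cells. It stood at 3106, 2906 and 3019 scaled reads in control and 4231, 4215 and 4230.0 in knockout. The groups did not overlap, and it rose by 1.4-fold (log2 change 0.49 ± 0.037 SE, limma adjusted p = 1.58e-08). Other muscle genes did not follow it. Des fell from 219.6 ± 13.0 to 56.6 ± 12.7 scaled reads (SD, n = 3) and Ckm from 51.6 ± 14.1 to 30.8 ± 0.944, Acta1 stood at 17.5 and 19.5, and Myog and Myod1 were not analysed here. Trim72, the membrane repair protein of muscle, was below the filter.

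Among members with a C-terminal domain found in few others, Trim37, a MATH domain ligase of peroxisomes and centrosomes, was read at 11398, 11593 and 11934 scaled reads in control and 13045, 13263 and 12789 in knockout. It rose slightly with no overlap of the groups (log2 change 0.16 ± 0.031 SE, limma adjusted p = 0.000308). Trim23, which carries an ARF GTPase domain, was at a log2 difference of -0.019 ± 0.041 (SE, limma adjusted p = 0.702), and passed as lower net of the neighbours at -0.14 (limma adjusted p = 0.00888). Trim45, with a filamin repeat, was at -0.23 ± 0.11 (SE, limma adjusted p = 0.0732), and passed as lower with equal totals, TMM rescaling and in edgeR (adjusted p = 0.03, 0.047 and 0.0337).

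Of the 13 other tested members 6 rose, 2 fell and 5 did not pass. Trim65, a ligase of the RNA sensor MDA5, was read at 389.6, 393 and 454 scaled reads in control and 675, 671 and 671 in knockout (chromosome 11, 116121846 to 116131128). Its knockout libraries were nearly equal and all above the controls (1.63-fold, log2 change 0.71 ± 0.072 SE, limma adjusted p = 4.46e-07). Ifih1, the gene of the MDA5 protein, fell from 1129 ± 14.5 to 411 ± 20.5 scaled reads, and a link between these changes was not tested. Trim7, named for its interaction with glycogenin, was at 596, 565 and 619 scaled reads across the controls against 304, 302 and 230.3 across the knockouts (chromosome 11, 48826140 to 48852209). Its groups did not overlap, knockout 3 being lowest, and it fell by 2.13-fold (log2 change -1.10 ± 0.10 SE, limma adjusted p = 1.63e-07). Trim10, known from red cell development, was at 255, 276 and 245 scaled reads in control cells and at 161, 154 and 165 in knockout cells (chromosome 17, 36869574 to 36877833). It fell with no overlap of the groups (log2 change -0.69 ± 0.095 SE, limma adjusted p = 1.22e-05). Trim27, Trim39, Trim11, Trim62 and Trim8 rose by 0.14 to 0.36 on the log2 scale, of which Trim8 overlapped between the groups and lost its call in 9 of 18 settings, the leaving out of control 2, knockout 1 or knockout 2 among them. Trim62 did not pass in DESeq2 (adjusted p = 0.0602). Trim35 was read at 9549.8, 9248 and 9443 scaled reads across the controls against 9804, 9765 and 9593 across the knockouts. The knockout libraries lay just above the controls but the gene did not pass (log2 change 0.046 ± 0.030 SE, limma adjusted p = 0.201). Trim41, Trim47, Trim50 and Trim68 ranged from -0.19 to 0.021 and did not pass. Net of the neighbours Trim35 passed as higher at 0.14, and Trim41 and Trim47 passed as lower at -0.16 and -0.29. Trim41 also passed as lower without control 2 and Trim47 without knockout 3.

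**Figure D4:**
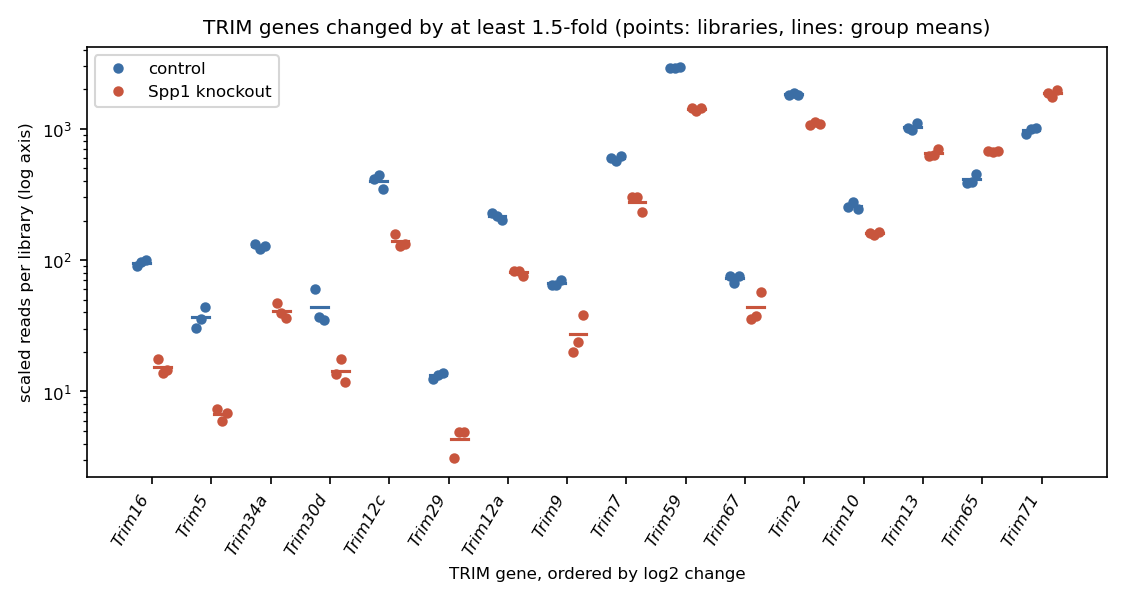
Scaled reads in each library, on a log axis, of the 16 TRIM genes that changed by at least 1.5-fold (limma adjusted p under 0.05), ordered by log2 change; points are libraries (n = 3 per group) and lines are group means. The knockout points lie wholly below the control points in 14 genes and wholly above them in Trim65 and Trim71.

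Levels of the members were compared per kilobase of exon, in scaled reads per kb of the union of annotated exons. In control Trim28 led at 4746, followed by Trim44 at 2272, Trim35 at 2038, Trim37 at 1614, Trim32 at 1244, Trim63 at 1059 and Trim41 at 1014. In knockout Trim28 was at 6774, and Trim59, at 871 in control, was at 421. Trim16 stood at 20.9 in control and 3.38 in knockout, Trim12c at 107 and 37.1, and Trim5 at 9.94 and 1.81. Trim17, Trim38, Trim69, Trim72 and Trim80 did not pass the filter. Their values ranged from 0.814 to 7.32 scaled reads over the 6 libraries, and the groups overlapped in each.

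**Figure D5:**
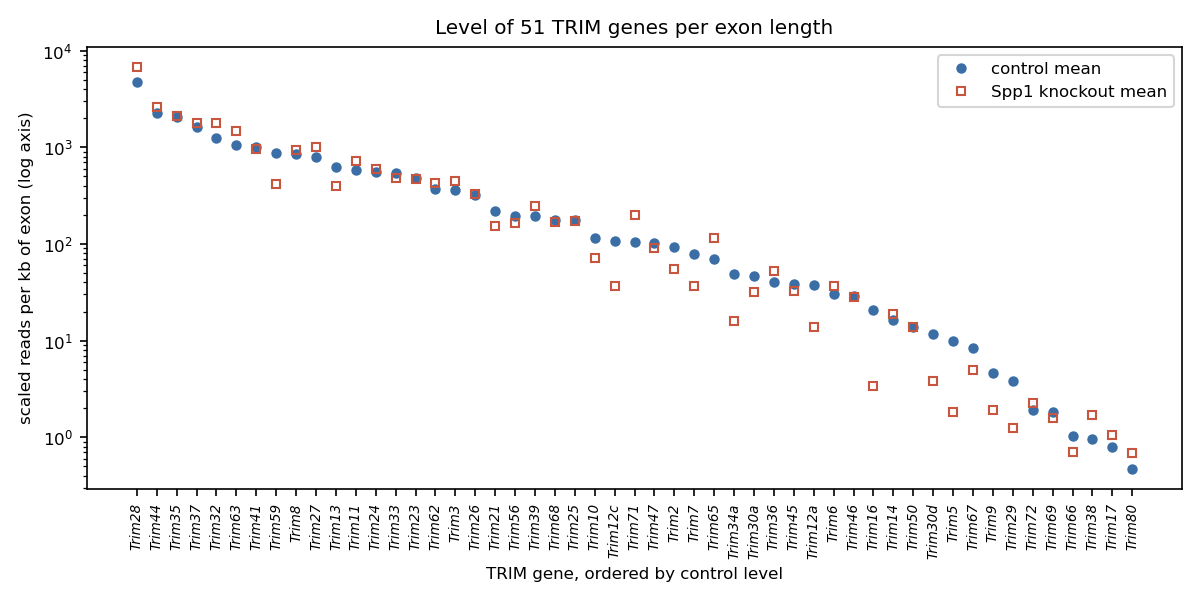
Mean level of the 51 TRIM genes in scaled reads per kb of exon, on a log axis, in control (filled circles) and knockout (open squares), ordered by the control level (means of n = 3 libraries). Levels in control run from 4746 for Trim28 to 0.474 for Trim80, and the widest gaps between the symbols are seen in Trim16 and Trim5.

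Family members with other names did not pass the test. Pml, the organiser of PML nuclear bodies, stood at 3338 ± 177 scaled reads in control and 3492 ± 177 in knockout (SD, n = 3; log2 change 0.065 ± 0.046 SE, limma adjusted p = 0.239), and Mid2, a microtubule-binding ligase, at 1537 ± 94.5 and 1547 ± 93.2 (log2 change 0.0094 ± 0.056 SE, limma adjusted p = 0.896). Pml lies on chromosome 9 among genes with a median of -0.35 and stood at 0.41 net of the neighbours (limma adjusted p = 1.8e-06). Mid1 was below the filter at 4.88 and 5.39.

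The enzymes that supply TRIM ligases with ubiquitin changed in both directions. Of 11 tested genes 5 fell, 4 rose and 2 did not pass, where 28.6% of all tested genes fell and 34.4% rose. Ube2n, which builds lysine 63 chains, fell from 8891 ± 262 to 5628 ± 68.8 scaled reads and Ube2d1, a common partner of RING ligases, by 0.38 on the log2 scale. Their neighbours on chromosome 10 had medians of -0.58 and -0.62, and net of the neighbours they stood at -0.077 and 0.23. The ubiquitin-activating enzyme Uba1 rose by 0.20 on the log2 scale. For comparison, of 61 tested genes of the RING finger series Rnf 25 rose, 20 fell and 16 did not pass, and 13.1% of them changed by at least 1.5-fold, where 34.8% of the TRIM genes and 16.7% of all tested genes did. That difference between the families was not tested.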

How the data were processed

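The deposited table holds 1 signal value per gene and library, which the authors made by counting reads per gene and dividing by a size factor; the tools listed in the submitters' processing notes are STAR 2.5.0a, cutadapt 1.6, DESeq and HTSeq 0.5.3, and the build is mm10. The strand setting of the counting is not given in the sources used here. Dividing a column by its smallest value gave whole reads (tolerance 0.001) in all 6 libraries. In knockout 2 the value of 1 read is too near 1 for this to be told from unscaled values, so edgeR and DESeq2 were run as alternatives on the 5 other libraries; read totals and shares of reads use all 6.

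Genes with at least 10 scaled reads in at least 3 of 6 libraries were tested with limma 3.58.1 (R 4.3.3, trend and robust estimation, no covariate) on log2(value + 1), which understates the change of low genes. Fold changes in the text are ratios of group means of scaled reads. P-values are two-sided and adjusted by Benjamini-Hochberg over all 15307 genes, with a threshold of 0.05. The procedure was tested on simulated data in which far fewer genes changed than passed here. That simulation cannot give the rate of false calls in these data. The smallest p of an exact permutation test of 3 against 3 libraries is 0.1, so none is given. Alternatives used edgeR 4.0.16, DESeq2 1.42.0, TMM rescaling, equal totals, other filters and pseudocounts, a replicate block, a test against a 1.2-fold change, subtraction of the median change of the 50 tested genes on each side, and leaving out each library.

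Members with a change of at least 1.5-fold, and the 4 others with the highest level per kb, were given in every library by rule, as were up to 2 genes in each direction of each pathway list. Some genes of these lists are counted but not reported here by name. Trim6, Trim21, Trim25, Trim30a, Trim32 and Trim63 were given in full, and Pml, Ifih1 and the marker genes named, after their values were seen. The members and lists were chosen with earlier results of these data known. All libraries carry the same batch label. Positions and exon lengths come from GENCODE M21, matched by gene ID for 19121 of 19213 genes, and genes sharing over 20% of their 50-base words or exon length with others were called uncertain. Another 17 annotated Trim symbols were not analysed here.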

Additional observations from a re-analysis of the deposited data

How the results depend on the processing

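Of 18 alternative settings, those that tested a member left 6 of the 16 higher members, 13 of the 18 lower members and 3 of the 12 without a call as reported. Trim5, Trim29, Trim30d, Trim50 and Trim66 were not tested with a minimum of 50 scaled reads. The lower interferon-linked members numbered 8, except for 6 with a minimum of 50 scaled reads and 6 in the test against a 1.2-fold change. That test left 6 higher TRIM genes, 1581 higher and 2168 lower genes in all, 2 higher and 1 lower TRIM28 partners, 0 higher RNA sensing genes, and 1 higher and 2 lower ubiquitin enzymes. Net of the neighbours 1 TRIM28 partner was lower. The higher ubiquitin enzymes numbered 2 with equal totals, without trend and robust estimation, in edgeR and in DESeq2. Members split into 15 higher and 20 lower with TMM rescaling, 13 and 21 with equal totals, 13 and 20 in edgeR, and 11 and 16 in DESeq2, and the median member stood at -0.14 in edgeR. The causes were not tested.

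Signs turned for Trim33, the called member among them, at 0.12 net of the neighbours, and for 7 members without a call. Net of the neighbours Trim26 stood at -0.030, Trim45 at 0.051, Trim46 at 0.32 and Trim50 at -0.098 on the log2 scale. With equal totals Trim35 stood at -0.0028 and Trim50 at -0.026. In edgeR Trim26, Trim46 and Trim50 stood at -0.022, 0.0086 and -0.20, and in DESeq2 at -0.0023, 0.026 and -0.19. Leaving out 1 library gave ranges of -0.049 to 0.0042 for Trim23, -0.057 to 0.063 for Trim25, -0.075 to 0.11 for Trim46 and -0.26 to 0.20 for Trim50.

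Deviations of same-numbered libraries from their group means correlated at -0.11, -0.24 and -0.038. These values show no shared shift of same-numbered libraries, but cannot tell whether such libraries were handled together. With the replicate block 15 members were higher and 18 lower, and 5058 and 4231 of all genes. Depth limits members near 10 scaled reads, such as Trim29 and Trim66. Without knockout 2, the library left out of the count tests, Trim67 kept its call in limma.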
